A study of Mus musculus with 6 samples.

Results

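The 7SK small nuclear RNA, its particle proteins and the genes of the elongation factor P-TEFb and its partners were followed in mouse KP cells in which Npm1, the gene of the nucleolar protein nucleophosmin, was knocked down. The group holds 9 genes of the 48526 gene identifiers counted, namely Rn7sk, Hexim1, Larp7, Mepce, Cdk9, Ccnt1, Ccnt2, Ell2 and Aff4, and all 9 passed the filter on low counts, which 14531 genes passed. Rn7sk was chosen by its difference between treated and untreated cells in these same libraries, so its values in that comparison are a description and carry no test. The other 8 were taken for their known part in the same machinery, with the results of these libraries already known. The treated cells were 3 stable lines grown with 100 ng/ml doxycycline, a tetracycline antibiotic, and the untreated cells were the same 3 lines grown without it. Each line, selected with puromycin, carries a Tet-on pLKO.1 vector with 1 of 3 hairpin RNAs against Npm1 (shNpm1-3, shNpm1-4 or shNpm1-5), which doxycycline switches on, and the number of the hairpin names the line (3, 4 or 5). RNA was sequenced in 1 library per line and condition, giving 6 libraries, 3 per group. The spread within a group is thus that between lines with different hairpins and not between cultures of 1 line. Doxycycline-treated cells lacking such a hairpin were not analysed here, and an effect of the drug cannot be told apart from that of the knockdown.

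7SK is a short noncoding RNA made by RNA polymerase III and abundant in nuclei. P-TEFb, a kinase made of Cdk9 and a T-type cyclin, releases RNA polymerase II from its pause near gene starts, and part of the cell's P-TEFb is held inactive on 7SK by the protein Hexim1. Mepce, which caps the 5′ end of the RNA, and Larp7, which binds its 3′ end, keep the particle together, while Ell2 and Aff4 belong to the super elongation complex that works with the active kinase.

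Rn7sk (ENSMUSG00000065037) lies on the minus strand of mm10 chromosome 9, from 78175303 to 78175633, and is annotated as a single-exon RNA of 331 bases that shares no exonic base with another annotated gene. Its first 100 bases (chr9:78175534-78175633, minus strand) are shown because they hold the 5′ hairpin, where in human 7SK repeated GAUC elements are known to bind HEXIM1. The capitals mark GATC, the DNA letters of that element. The last 110 bases (chr9:78175303-78175412, minus strand), bases 222 to 331, are shown because they hold the 3′ end, which Larp7 binds, and because they set what could be counted. There the capitals mark bases 242 to 331, which lie outside the stretch identical with the copy Gm24447.
Rn7sk, bases 1 to 100: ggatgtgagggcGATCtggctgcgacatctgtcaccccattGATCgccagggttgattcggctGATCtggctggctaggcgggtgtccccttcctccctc
Rn7sk, bases 222 to 331: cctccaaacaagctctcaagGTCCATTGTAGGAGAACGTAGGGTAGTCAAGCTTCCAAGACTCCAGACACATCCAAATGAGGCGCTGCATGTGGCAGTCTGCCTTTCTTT
Both were read from the GENCODE vM21 transcript, 5′ to 3′. GATC, which reads the same on either strand, starts at bases 13, 42 and 64 and nowhere else in the 331 bases. Of 139316 annotated transcripts with at least 100 bases, 23.4% hold GATC at least once in their first 100 bases and 0.323% hold it at least 3 times. The annotated copy Gm24447 on chromosome 15 is identical to Rn7sk over bases 1 to 241, and 11 annotated genes in all matched it at 90% identity or more over at least 100 bases. Reads that aligned to more than 1 place, 31.4% to 37.8% of those in a library's file, were kept in a row of their own and not counted for a gene, so reads that lie wholly within the shared bases can be missing from Rn7sk. The 11 copies together held 4 counts with doxycycline and 7 without it, and no copy had more than 3 counts in a library.

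Rn7sk was several times higher with doxycycline in each line. Its level was 56.6, 84.1 and 45.6 CPM (counts scaled to a common library size with TMM factors) in the treated cells of lines 3, 4 and 5, from 1238, 2547 and 1193 counts. In the untreated cells it was 19.3, 16.0 and 20.8 CPM, from 502, 409 and 541 counts. Every treated library stood above every untreated one, and line 4 had the highest treated and the lowest untreated level. The means were 62.1 ± 19.8 CPM with doxycycline and 18.7 ± 2.43 CPM without it (SD, n = 3 each), a log2 fold change of 1.73 (SE 0.22, edgeR). Within the lines the treated level was 2.93 times the untreated one in line 3 (95% exact counting interval 2.64 to 3.26), 5.25 times in line 4 (4.73 to 5.84) and 2.20 times in line 5 (1.98 to 2.44). The intervals do not overlap and cover counting error only. Npm1, the targeted gene, stood at 67.7, 245 and 399 CPM in the treated cells of lines 3, 4 and 5 and at 2000.3, 1850 and 1923 CPM in the untreated cells, so that 3.39%, 13.2% and 20.8% remained (log2 fold change -3.02, SE 0.49, adjusted p = 0.0111 by edgeR). Line 4, which had the largest ratio of Rn7sk, was between the other lines in remaining Npm1.

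Most markers of macrophages were, like Rn7sk, higher with doxycycline. The summed level of 13 macrophage markers was 263, 423 and 171 CPM in the treated cells of lines 3, 4 and 5 and 32.4, 31.2 and 31.5 CPM in the untreated cells. By edgeR 10 of the 12 that were tested rose, beside 0.963% of all genes tested. The other two did not pass. Ptprc, the pan-leukocyte protein CD45, averaged 5.32 ± 1.68 CPM with doxycycline and 8.64 ± 1.82 CPM without it (SD, n = 3 each; log2 fold change -0.69, adjusted p = 0.222 by edgeR), and Cd68, a lysosomal protein of macrophages, was at 0.14 (adjusted p = 0.792 by edgeR). The treated libraries stand in the same order, line 4, line 3, line 5, for the markers and for Rn7sk. The untreated libraries do not, with line 3 highest for the markers and line 5 highest for Rn7sk. Rn7sk was chosen by its gap between the groups, and so few libraries can share an order by chance, so nothing is read from either. Adgre1, the macrophage surface protein F4/80, had 845 counts with doxycycline and 2 without it, and Marco had 0 with doxycycline and 1 without it. The summed level of 11 T lymphocyte markers was 4.17 to 6.81 CPM with doxycycline and 19.7 to 25.6 CPM without it. By edgeR 9 of the 11 fell, beside 1.32% of all genes tested. All 9 had passed the filter on low counts only through the untreated libraries. Some of the macrophage markers called, Adgre1 among them, passed it only through the treated ones. The filter thus shaped both counts of calls, and nothing is read from them. Cd3d and Nkg7 were at 0 in every treated library. The part of such cells in the level of Rn7sk was not tested, and in bulk RNA a change in the number of cells of a type and a change of RNA per cell cannot be told apart. The labels name no cell type beyond KP, and the 7 epithelial markers, led by Krt8 and Krt18, summed to 8891 to 10598 CPM with doxycycline and 10115 to 12098 CPM without it. All 7 had log2 fold changes below 0 (median -0.29), where 7205 of all 14531 genes tested did. By edgeR 1 of the 7 was called lower, beside 1.32% of all genes tested. It was the tight junction gene Cldn4, which fell to 12.7 ± 4.95 CPM with doxycycline, against 29.7 ± 4.65 CPM without it (SD, n = 3 each; log2 fold change -1.23, adjusted p = 0.0325 by edgeR).

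**Figure D1:**
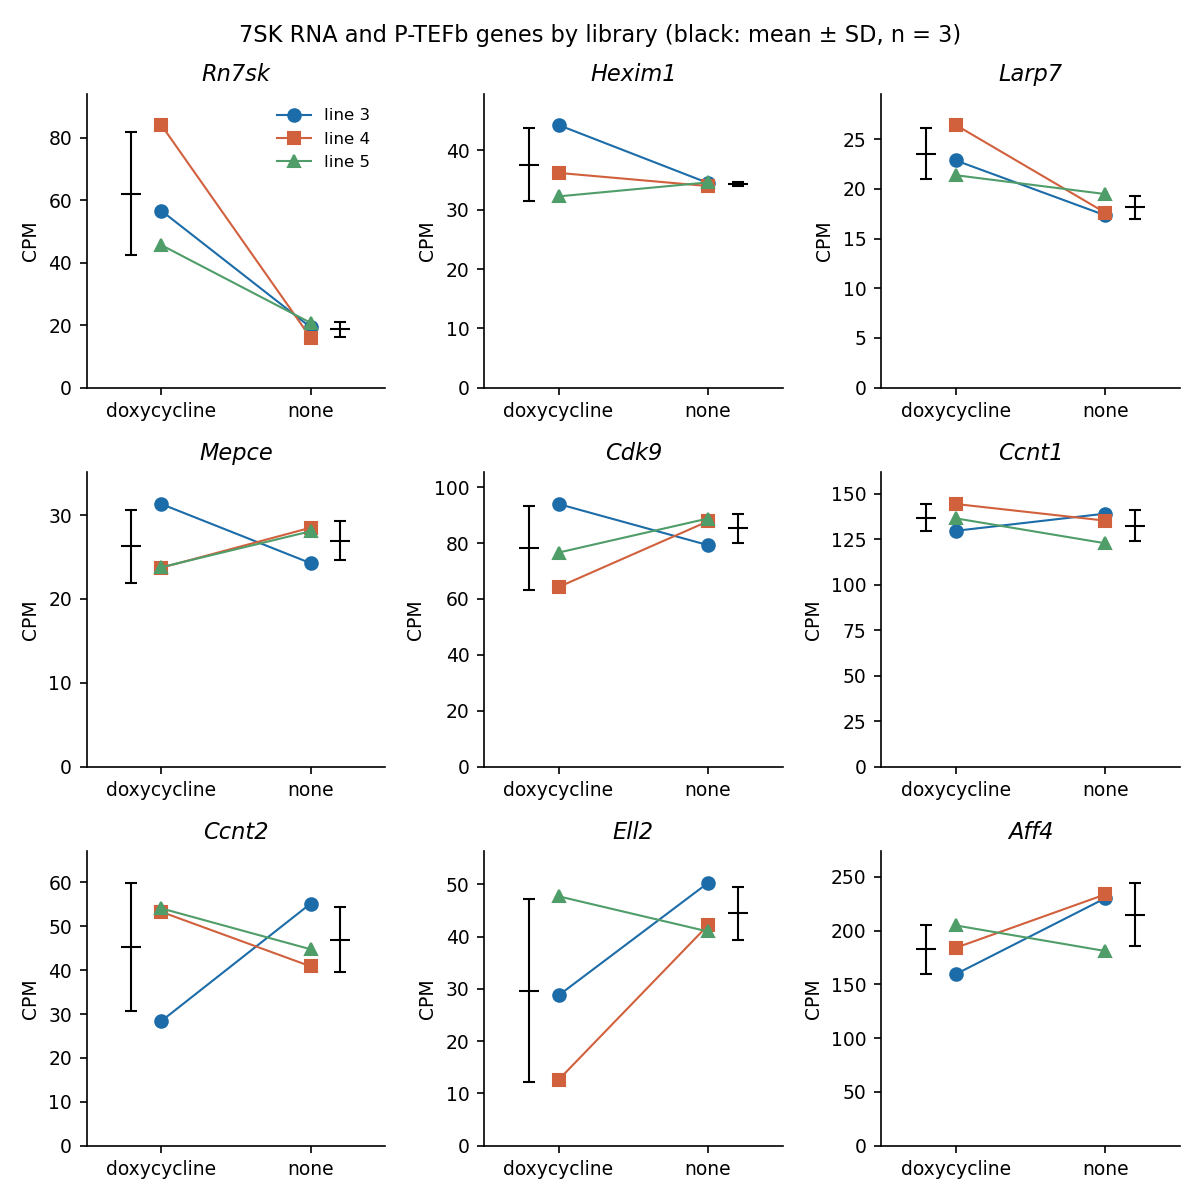
Level of each gene in CPM (vertical axis, from 0) in cells with doxycycline and without it (horizontal axis), with 1 coloured line per cell line and the mean ± SD of 3 libraries in black. Rn7sk is at 45.6 to 84.1 CPM with doxycycline and at 16.0 to 20.8 CPM without it, whereas the groups of every other gene shown except Larp7 overlap.

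None of the 8 protein-coding genes passed the test. By edgeR's quasi-likelihood test adjusted over all 14531 genes, 0 of the 8 differed between treated and untreated cells, where 2.28% of all genes did (0.963% higher and 1.32% lower). Rn7sk is 1 of the genes among the higher ones, and nothing is read from that. At an unadjusted p under 0.05 there was 1 of the 8 (Larp7), beside 16.3% of all genes tested, and DESeq2 and limma-voom also called 0. The median log2 fold change of the 8 was -0.04, beside 0.00 for all genes tested, and the single values ran from -0.58 to 0.38. Their groups did not overlap for 1 of the 8, again Larp7, beside 22.6% of all genes tested.

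Of the proteins of the 7SK particle, Larp7 had the largest difference. Larp7 (mm10 chromosome 3, 127536714 to 127553349, minus strand) was at 22.9, 26.4 and 21.4 CPM in the treated cells of lines 3, 4 and 5, and at 17.3, 17.6 and 19.5 CPM in the untreated cells. All treated libraries were above all untreated ones, with the widest gap in line 4 and the narrowest in line 5. The ratios of Rn7sk have the same order, but so few lines can share an order by chance, so nothing is read from it. The log2 fold change was 0.38 (SE 0.14, 95% interval 0.06 to 0.70, adjusted p = 0.227 by edgeR, n = 3 lines per group). Over the 18 alternative settings it stayed between 0.26 and 0.49 and its smallest adjusted p was 0.1004.

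Hexim1 (chromosome 11, 103116231 to 103119725, plus strand), the inhibitor that 7SK presents to the kinase, stood at 44.3, 36.2 and 32.2 CPM with doxycycline and at 34.5, 34.0 and 34.6 CPM without it. The untreated libraries were close together, and the treated ones lay on either side of them, highest in line 3. Its log2 fold change was 0.13 (SE 0.14, 95% interval -0.19 to 0.44, adjusted p = 0.719 by edgeR), and a 2-fold change in either direction lies outside that interval. Mepce (chromosome 5, 137781906 to 137787655, minus strand), the capping enzyme of 7SK, was at 31.3, 23.7 and 23.8 CPM with doxycycline and 24.3, 28.5 and 28.1 CPM without it. It was higher with doxycycline in line 3 and lower in lines 4 and 5, a log2 difference of -0.04 (SE 0.15, 95% interval -0.38 to 0.30, adjusted p = 0.939 by edgeR).

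The kinase subunit Cdk9 (mm10 chromosome 2, 32705784 to 32713076, minus strand) stood at 94.0, 64.3 and 76.6 CPM with doxycycline and at 79.3, 87.8 and 88.8 CPM without it. Line 3 was above its untreated library and lines 4 and 5 below theirs, so that the groups overlapped. The log2 fold change was -0.12 (SE 0.15, 95% interval -0.46 to 0.21, adjusted p = 0.746 by edgeR). The cyclin T1 gene Ccnt1 lies on chromosome 15, 98538689 to 98570923, minus strand, and shares 7.59% of its exonic bases with the antisense gene 9330020H09Rik. Cyclin T1, the most widely used partner of Cdk9, was at 129.7, 144 and 137 CPM with doxycycline and 139, 135 and 123 CPM without it. It had the smallest standard error of the 8, with a log2 fold change of 0.05 (SE 0.12, 95% interval -0.21 to 0.31, adjusted p = 0.894 by edgeR). Ccnt2 (chromosome 1, 127774164 to 127808061, plus strand), the gene of the alternative partner cyclin T2, was at 28.4, 53.3 and 54.1 CPM with doxycycline and 55.2, 40.9 and 44.8 CPM without it. The treated library of line 3 was the lowest of the 6 for Ccnt2, at 51.5% of the untreated level of that line, whereas lines 4 and 5 were at 130.4% and 121% of theirs. The log2 fold change was -0.05 (SE 0.23, 95% interval -0.56 to 0.46, adjusted p = 0.946 by edgeR).

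Ell2 (mm10 chromosome 13, 75706757 to 75772364, plus strand), an elongation factor of the super elongation complex, differed most between lines after doxycycline. It was at 28.8, 12.6 and 47.7 CPM in the treated cells of lines 3, 4 and 5, and at 50.3, 42.2 and 41.01 CPM in the untreated cells. Treated cells held 57.2% of the untreated level in line 3, 29.9% in line 4 and 116% in line 5. The log2 fold change was -0.58 (SE 0.36, 95% interval -1.38 to 0.21, adjusted p = 0.463 by edgeR). It passed when no filter on low counts was applied (adjusted p = 0.0133 by edgeR) and in none of the other 17 settings, and it was -0.22 without the treated library of line 4 and -1.11 without that of line 5. Aff4 (chromosome 11, 53350833 to 53421830, plus strand), the scaffold of the same complex, stood at 159.5, 184 and 205 CPM with doxycycline and at 230.0, 234 and 181 CPM without it. It was lower with doxycycline in lines 3 and 4 and higher in line 5, the same split of the lines as for Ell2, with a log2 fold change of -0.23 (SE 0.15, 95% interval -0.56 to 0.10, adjusted p = 0.483 by edgeR).

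**Figure D2:**
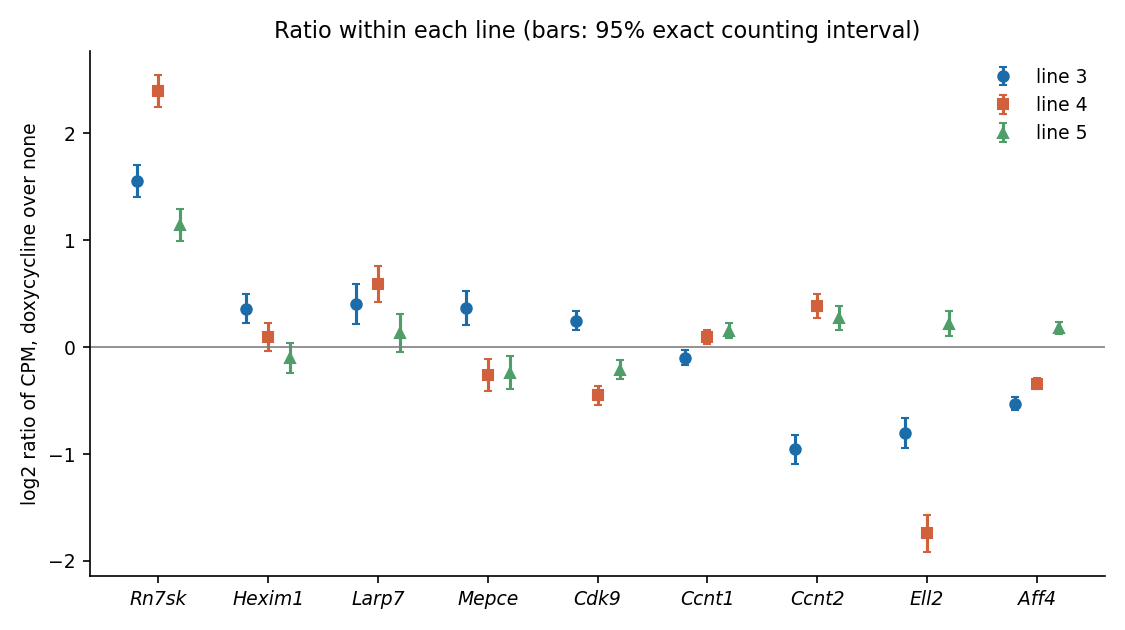
The log2 ratio of CPM with doxycycline over CPM without it (vertical axis) for each gene (horizontal axis) in lines 3, 4 and 5, with 95% exact counting intervals as bars, which cover counting error only. All 3 ratios of Rn7sk lie above 1 on the log2 scale, while 7 of the 8 other genes have lines on both sides of 0, in 6 of them beyond the counting intervals.

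Per length of the longest annotated transcript, Rn7sk had the highest level of the 9 genes in each group, at 188 ± 59.8 CPM per kb with doxycycline and 56.5 ± 7.34 CPM per kb without it (SD, n = 3 each). Reads within the bases it shares with its copies can be missing from that level. The other 8 genes stood at 5.79 to 21.96 CPM per kb on average with doxycycline and at 6.14 to 23.9 CPM per kb without it. In untreated cells Cdk9 (23.9 ± 1.47 CPM per kb), Aff4 (21.3 ± 2.91) and Ccnt1 (17.9 ± 1.15) came next, each overlapping its neighbour in that order. Hexim1 (9.83 ± 0.0949 CPM per kb), Ell2 (8.68 ± 0.986), Mepce (8.62 ± 0.745) and Larp7 (8.56 ± 0.549) followed, with Hexim1 and Ell2 overlapping in their ranges and the last 3 overlapping one another. Ccnt2 was lowest at 6.14 ± 0.967 CPM per kb, below every untreated value of Larp7.

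The balance of 7SK to its inhibitor protein's transcript can be given as a ratio of levels per length. Rn7sk over Hexim1 was 13.5, 24.5 and 14.9 in the treated cells of lines 3, 4 and 5, and 5.91, 4.98 and 6.33 in the untreated cells. Rn7sk over Cdk9 was 6.49, 14.1 and 6.41 in the treated cells and 2.62, 1.96 and 2.52 in the untreated cells. Neither ratio overlapped between the groups, which follows from the values of Rn7sk and is given without a test. Ccnt1 over Ccnt2 was 4.72, 2.80 and 2.61 in the treated cells and 2.61, 3.42 and 2.83 in the untreated cells, with the treated library of line 3 apart from the other 5.

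Whether the lines themselves differed was asked with a contrast that had no part in choosing these genes. In a model with doxycycline and line, edgeR's quasi-likelihood test called 0 of the 9 genes, and 0.0% of all genes tested (0 of 14531). At an unadjusted p under 0.05 there were 0 of the 9 genes, beside 4.59% of all genes. The smallest adjusted p among the 9 was 0.868, for Ell2, and Rn7sk had an adjusted p of 0.92. Without the filter on low counts Ell2 passed, with an adjusted p of 0.0104. With 1 library per line and condition, a difference between lines in their response to doxycycline could not be tested. The ratios within the lines went opposite ways beyond their counting intervals in 6 of the 8 protein-coding genes, beside 24.6% of all genes tested.

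The wider machinery was described through 7 lists of related genes, with 94 of 115 members tested. Fosb and Fos, both in the list of short-lived transcripts, were the 2 of these 94 that passed (edgeR, adjusted over all genes), beside 2.28% of all genes tested. The other 6 lists had 0 calls, with 13 of their 82 tested members at an unadjusted p under 0.05, where 16.3% of all genes tested were, and DESeq2 called 1 of them (Rpph1) and limma-voom 0. Among 15 proteins that bind 7SK or release P-TEFb from it the median log2 fold change was 0.02. Hnrnpa1, an RNA-binding protein found on 7SK freed of P-TEFb, had a log2 fold change of -0.37 (SE 0.14, adjusted p = 0.214 by edgeR). Hnrnpa1 passed only without the treated library of line 3 (adjusted p = 0.0375 by edgeR).

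The 9 tested of 11 further subunits of the super and little elongation complexes had a median of -0.10, with Eaf2, a partner of ELL proteins, at 0.94 (SE 0.35, adjusted p = 0.217 by edgeR) and Zc3h8 at 0.47 (SE 0.19, adjusted p = 0.249 by edgeR). The 14 pausing and elongation factors had a median of 0.00. Leo1, a subunit of the PAF1 complex, was at -0.45 (SE 0.17, adjusted p = 0.241 by edgeR) and Supt5, a subunit of the pausing factor DSIF, at -0.24 (SE 0.12, adjusted p = 0.347 by edgeR). The 9 other transcription kinases and cyclins had a median of 0.17. Cdk8, the Mediator kinase, was at 26.2, 36.1 and 31.9 CPM in the treated cells of lines 3, 4 and 5 and at 21.8, 22.2 and 22.6 CPM in the untreated cells, which did not overlap. Its log2 fold change was 0.50 (SE 0.15, adjusted p = 0.125 by edgeR), and it passed without the treated library of line 3 (0.0111) and without both libraries of line 3 (0.0471).

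RNA polymerase III, which makes 7SK, and its factors were all 32 tested, with a median log2 fold change of 0.05. Of the 32, 22 were above 0 and 10 below, where 7326 of all 14531 genes tested were above 0 and 7205 below. The 2 with the smallest p were Snapc5 (0.44, SE 0.18) and Snapc3 (0.37, SE 0.15), subunits of the complex that binds the promoters of small nuclear RNA genes, each with an adjusted p of 0.244 by edgeR. At an unadjusted p under 0.05 there were 6 of the 32, a share close to the 16.3% of all genes tested.

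Fosb and Fos are immediate early genes whose transcripts are made and lost quickly. Fosb fell to 2.20, 1.45 and 2.14 CPM in the treated cells of lines 3, 4 and 5, against 8.58, 9.83 and 7.33 CPM in the untreated cells (log2 fold change -2.16, SE 0.25, adjusted p = 0.00167 by edgeR), and passed in all 18 other settings. Fos fell to 5.44, 3.40 and 4.32 CPM, against 10.2, 11.8 and 7.17 CPM in the untreated cells (log2 fold change -1.15, SE 0.25, adjusted p = 0.0452 by edgeR). Its call was lost in 10 of the 18 other settings, among them the line as a block (adjusted p = 0.0721 by edgeR), the treated library of line 4 or 5 left out (0.0823 and 0.101) and the untreated library of line 3 or 4 left out (0.197 and 0.273). The median of the 12 short-lived transcripts was -0.33, with single values from -2.16 to 0.56. The medians of the log2 ratios within lines 3, 4 and 5 were 0.04, -0.87 and -0.19. Myc, the growth regulator, was at -0.12 (SE 0.19, adjusted p = 0.816 by edgeR).

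**Figure D3:**
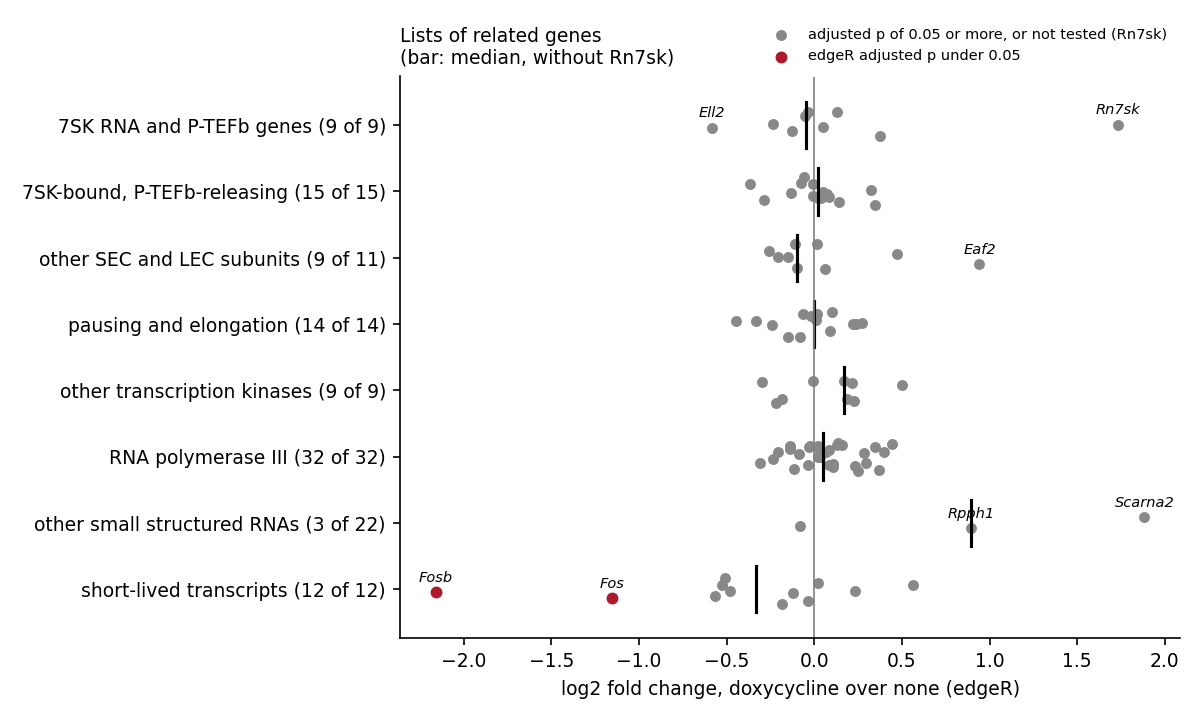
The log2 fold change with doxycycline over none from edgeR (horizontal axis) of each tested gene in 8 lists (rows, with the number tested of the number listed), with the median of each list as a black bar, computed without Rn7sk. Rn7sk at 1.73 stands apart from the 8 other members, which lie between -0.58 and 0.38, and the 2 red points are Fosb and Fos.

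Other short structured RNAs that, like 7SK, are not messenger RNAs were mostly too low to test, with 3 of 22 named ones passing the filter. Rpph1, the RNA of the tRNA-processing enzyme RNase P, also made by RNA polymerase III, was at 51.9, 42.3 and 29.5 CPM in the treated cells of lines 3, 4 and 5 and at 22.7, 18.5 and 25.4 CPM in the untreated cells. The groups did not overlap, and line 5 showed the smallest gap. Its log2 fold change was 0.89 (SE 0.21, adjusted p = 0.055 by edgeR), and 73.0% of its bases are shared with exons of Ccnb1ip1, so that reads of the 2 genes could not all be told apart. Rpph1 passed in 7 of the 18 other settings and not in 11. Among the 7 were DESeq2 (adjusted p = 0.00346) and offsets for length and GC content (adjusted p = 0.0197 by edgeR). Scarna2, a guide RNA of Cajal bodies, had 46 counts with doxycycline and 12 without it (log2 fold change 1.88, SE 0.61, adjusted p = 0.16 by edgeR). It passed the filter on low counts only through its treated libraries. Rmrp lies wholly within another annotated gene and had 60 counts with doxycycline and 62 without it.

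By annotation class, 8 genes of the snRNA, scaRNA, ribozyme and miscellaneous RNA classes were tested. Rn7sk, chosen by this comparison, and Gm22009, annotated as a scaRNA, were the 2 called higher by edgeR, beside 0.963% of all genes tested. Gm22009 had 121 counts with doxycycline and 22 without it (log2 fold change 2.38, SE 0.45, adjusted p = 0.0254 by edgeR). Its untreated libraries held 9, 4 and 9 counts in lines 3, 4 and 5. It passed the filter on low counts only through the treated ones, so nothing is read from its call. Its call was lost in 8 of the 17 other settings that could test it, among them the line as a block (adjusted p = 0.067 by edgeR), the treated library of line 4 left out (0.0515) and the untreated library of line 3, 4 or 5 left out (0.134, 0.18 and 0.0845). Of 46 tested snoRNA genes 35 had a log2 fold change above 0, where 7326 of all 14531 genes tested did. By edgeR 0 of the 46 passed and 2 were at an unadjusted p under 0.05, beside 2.28% and 16.3% of all genes tested, and DESeq2 called 0. Their median log2 fold change was 0.29, and their summed level was 57.1 to 73.0 CPM with doxycycline and 42.8 to 52.4 CPM without it. The clustered histone genes, most of whose transcripts carry no poly(A) tail, had a median log2 fold change of 0.58 over 19 tested genes. By edgeR 1 of the 19 was called higher and 5 were at an unadjusted p under 0.05, beside 0.963% and 16.3% of all genes tested. In sum they were at 195, 160.4 and 188 CPM in the treated cells of lines 3, 4 and 5. The untreated cells held 139.9, 166 and 173 CPM, so that the sum was lower with doxycycline in line 4. Whether the libraries were made from RNA selected for poly(A) tails is not given in the sources used here. The part of a difference between libraries in how well short or untailed RNAs were captured was not tested. With offsets for length and GC content the log2 fold change of Rn7sk was 1.79 (SE 0.25). These offsets hold no term for poly(A) tails, so that this value does not bear on the capture of untailed RNAs.

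The genes whose levels most resembled those of Rn7sk were sought among 10194 other genes with a mean of at least 5 CPM, by Pearson's r of log2 CPM over the 6 libraries. The first 5 were Apoe (r = 0.998), Lyz2 (0.993), Sat2 (0.992), Parl (0.991) and Rabl3 (0.991). The libraries fall into 2 groups that do not overlap for any of these genes, so that r reflects the gap between the groups first. Apoe, an apolipoprotein, was at 18.3, 26.8 and 13.6 CPM in the treated cells of lines 3, 4 and 5 and at 6.46, 4.78 and 6.21 CPM in the untreated cells, with ratios within the lines of 2.83, 5.62 and 2.19 that lie close to those of Rn7sk. Lyz2, the lysozyme of myeloid cells and 1 of the macrophage markers above, was at 91.3, 145 and 59.9 CPM in the treated cells and at 10.3, 5.91 and 8.78 CPM in the untreated cells. For Sat2 (log2 fold change 0.74), Parl (0.47) and Rabl3 (0.28) the differences were smaller. Parl and Rabl3 did not pass (adjusted p = 0.0978 and 0.396 by edgeR). Sat2 passed (adjusted p = 0.0392 by edgeR) but lost its call in 12 of the 18 other settings. All 5 genes were picked by their likeness to Rn7sk, so these results are a description.

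**Figure D4:**
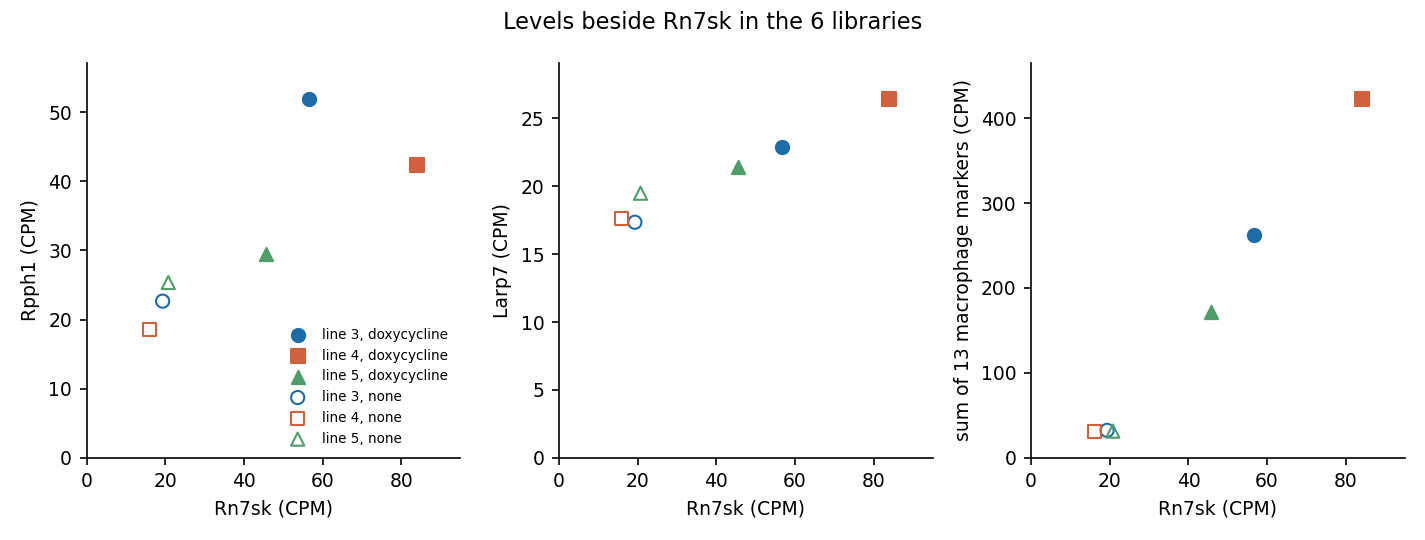
Levels of Rpph1, of Larp7 and of the sum of 13 macrophage markers (vertical axes, CPM) against that of Rn7sk (horizontal axes, CPM) in the 6 libraries, filled for doxycycline and open for none. The 3 treated libraries lie to the right of and above the 3 untreated ones in each panel, and the treated library of line 4 is highest for Larp7 and the macrophage markers but not for Rpph1.

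The libraries held 24391198 to 27341036 counts in genes. Over all genes 140 rose and 192 fell with doxycycline by edgeR, and 1551 genes in all were called without the treated library of line 3 and 89 without the untreated one. Rn7sk kept a log2 fold change of 1.35 to 1.99 in every setting, the lowest without both libraries of line 4.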

How the data were processed

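The authors deposited raw counts of reads for each gene, 1 file per library. The submitters' processing notes name the build mm10 and the tools STAR, HTSeq, Picard, CASAVA, bedtools, DESeq2 and R 3.3.0. Annotation release, strand setting and library kit: not given in the sources used here. The 5 rows that name no gene held 43.8% to 47.7% of reads and entered neither library sizes nor tests. Symbols, coordinates and transcript sequences came from the GENCODE vM21 annotation of the same build, which named 48144 of 48526 identifiers.

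Tests used edgeR 4.0.16 under R 4.3.3 (filterByExpr, TMM, quasi-likelihood F test, Benjamini-Hochberg adjustment over all genes, threshold 0.05), and standard errors were derived as the size of the log2 fold change over √F. CPM use TMM-scaled library sizes. The biological coefficient of variation was 18.0%. A floor of 3 counts is 0.099 to 0.137 CPM. Intervals within a line are exact binomial ones at 95%. Alternatives were RLE scaling, library totals only, no filter, a minimum of 5 CPM, the line as a block, DESeq2 1.42.0, limma-voom 3.58.1, offsets for length and GC content (mgcv 1.9.3), and each library or line left out. Copies of Rn7sk were sought with blastn 2.17.0. The procedures were tested on simulated data.

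A treated and an untreated library that share a number were made from 1 stable line, which pairs them. The treated and untreated library of a line deviated from their group means with correlations, taken over genes, of 0.0434 (line 3), 0.0962 (line 4) and 0.0274 (line 5). Treated and untreated libraries of different lines gave -0.112 to 0.0713, a range that holds the values of lines 3 and 5. The main test of doxycycline did not use this pairing. Its p-values measure the spread between the libraries of a group, each from a line with its own hairpin.

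The members, the lists and the rule for named genes were chosen with earlier results of these data known. The rule took the 9 genes, Npm1, up to 2 passing members of each list or otherwise the 2 of smallest p, the 5 genes most like Rn7sk over the libraries, and annotation classes. A gene that the rule takes is not reported here. The histone sum, Adgre1, Marco, Cd3d, Nkg7, Ptprc, Cd68, Cldn4 and Myc were added after their values were seen.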

Additional observations from a re-analysis of the deposited data

Results flagged for a closer look

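In 6 of the 8 protein-coding genes the lines went opposite ways with doxycycline, each by more than its 95% exact counting interval, as 24.6% of all tested genes did. Genes with more counts, such as these, reach that mark more readily. Ccnt2 had a ratio of treated over untreated level of 0.515 in line 3, 1.30 in line 4 and 1.21 in line 5. For Ell2 the ratios were 0.572, 0.299 and 1.16 in lines 3, 4 and 5. Those of Aff4 were 0.693, 0.788 and 1.13. Mepce had 1.29, 0.832 and 0.847, Cdk9 had 1.19, 0.732 and 0.863, and Ccnt1 had 0.932, 1.07 and 1.11. Line 3 stood against lines 4 and 5 for Ccnt2, Mepce, Cdk9 and Ccnt1, and line 5 against lines 3 and 4 for Ell2 and Aff4. The difference between lines was not tested, since each line has 1 library per condition.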

How the results depend on the processing

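The log2 fold change of Rn7sk stayed between 1.35 and 1.99 in all 18 alternatives, which was also its range when a library or line was left out. Over all genes the 332 calls became 1052 without a filter on low counts, 50 with a minimum of 5 CPM, 720 with DESeq2 and 243 with the line as a replicate block. Leaving out the treated library of line 3 gave 1551 genes and the untreated one of line 3, 4 or 5 gave 89, 117 or 182, while leaving out both libraries of line 3, 4 or 5 gave 664, 62 or 197, so the range was 62 to 1551. Between lines, the 0 calls became 240 without the filter. Of the 8 protein-coding genes, Ell2 alone passed in any alternative, without the filter. The sign of the fold change differed from the main one in 7 alternatives for Mepce, 4 for Ccnt2, 2 for Cdk9 and 1 for Ccnt1, none of which passed. With the line as a block 0 of the 8 passed, and among the named genes the calls of Fos, Gm22009 and Sat2 were lost (edgeR adjusted p = 0.0721, 0.067 and 0.0842). Apoe lost its call without the untreated library of line 3 or both libraries of line 4 (edgeR adjusted p = 0.0595 and 0.0775), and Npm1 in the same fits (0.0937 and 0.177). The causes were not tested. A copy or small RNA with fewer than 3 counts in a library is at the limit of these depths.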
